A study of Mus musculus with 8 samples.

Results

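The 7 genes described here were grouped under the name Th1 transcription factors: Tbx21 (T-bet), Eomes, Hlx, Runx3, Runx1, Twist1 and Stat4. The name does not describe the signal of each, since Runx1 was lower in Th1 than in Th17 cells and Stat4 did not pass between them. Each was taken from the deposited array table through a probe set annotated with that symbol alone, and each had 1 such probe set, so 7 of 19938 measured genes are the subject. The study asked what the DNA demethylase gene Tet2 does in T helper cells, on 8 arrays in 4 groups of 2. Cells of the genotype CD2(Cre)Tet2(f/f) are called Tet2-deficient here and those of the genotype Tet2(f/f) wild-type, as the labels have it, and each genotype was profiled as Th1 and as Th17 cells. The wild-type cells therefore carry the floxed Tet2 allele as well, without the Cre recombinase, and by its name the Cre is driven by CD2, a gene of lymphocytes. The titles call the 2 arrays of a group biological replicates, and the labels say nothing of culture conditions, time, age or of which cultures share an animal.

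Th1 cells arise when interleukin-12, acting through Stat4, and interferon-gamma lead to T-bet, the defining factor of the subset. T-bet switches on Ifng together with Hlx, a homeobox factor, and Runx3, a Runt-domain factor that also silences Il4, while its relative Eomes has overlapping targets and is best known in cytotoxic lymphocytes. Runx1 takes part in T cell development and promotes the Th17 program, an action that T-bet opposes. Twist1 is a basic helix-loop-helix repressor that Th1 cells induce and that limits their cytokine output.

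Values are log2 signals of a probe set, in which a difference of 1 is a doubling of signal. They can be compared between arrays for 1 gene, but not between genes. The median signal of all genes lay between 6.525 and 6.605 on every array, and Hlx and Twist1 lay under it on all 8 arrays. Tet2 itself read 8.12 and 7.98 in Tet2-deficient Th1 against 8.14 and 8.02 in wild-type Th1 cells, and 8.34 and 8.39 in Tet2-deficient Th17 against 8.51 and 8.49 in wild-type Th17 cells. Where its probes lie relative to the floxed part is not given in the sources used here, so its signal is no check of the deletion. All 6 markers of T cells, Cd4 and Cd3e among them, were above the median on every array, and Th17 markers averaged 8.91 to 9.43 on Th17 arrays but 5.81 to 6.08 on Th1 arrays. No marker of CD8 T cells, natural killer cells, B cells or myeloid cells was above the median on every array. That rule misses cells present in some groups only, since 0 of the Th17 markers passed it either. Of the markers of these other cells, Klrd1 was above the median on both Tet2-deficient Th17 arrays (7.25 and 8.07) and Cd8b1 on 2 arrays. In the sex of the RNA, 3 of the 4 Th17 arrays stood apart, the exception being wild-type Th17 replicate 1: Xist, transcribed from the inactive X chromosome of females, read 8.60 and 11.27 in Tet2-deficient Th17 and 5.15 and 10.07 in wild-type Th17 cells, but 4.80 to 5.07 on all Th1 arrays. The subset gaps of the 7 factors are therefore also described without the replicate 2 array of both Th17 groups, as are counts over all genes. Results of the gene lists are given from all arrays only. Tet2-deficient Th17 replicate 1, which that fit keeps, had Xist at 8.60, so the sex difference is not wholly removed. In such bulk samples, fewer cells that express a gene and less RNA per cell cannot be told apart.

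Genes were tested with limma over all 19938 genes, and called at a Benjamini-Hochberg adjusted p under 0.05. Each log2 fold change is given ± its standard error, and n = 2 arrays in every group. Most of the factors differed between the subsets. In Tet2-deficient cells, 5 of the 7 were higher in Th1 than in Th17 cells (Tbx21, Eomes, Runx3, Twist1 and Hlx), and Runx1 was lower. Over all genes, 3.79% were called higher and 6.32% lower in that comparison. In wild-type cells, 4 of the 7 were higher in Th1 than in Th17 cells (Tbx21, Eomes, Runx3 and Hlx) and Runx1 was lower, where 3.44% of all genes were called higher and 4.97% lower. The median log2 fold change of the 7 was 0.56 in Tet2-deficient and 0.74 in wild-type cells, against 0.03 over all genes in both. By contrast, 0 of the 7 were called between Tet2-deficient and wild-type cells in Th1 cells, where 0.00502% of all genes were called, and 0 of the 7 in Th17 cells, where 0% were called. The factors were chosen with earlier results of these arrays known, so these counts describe the 7 genes and are no independent evidence for a set.

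**Figure D1:**
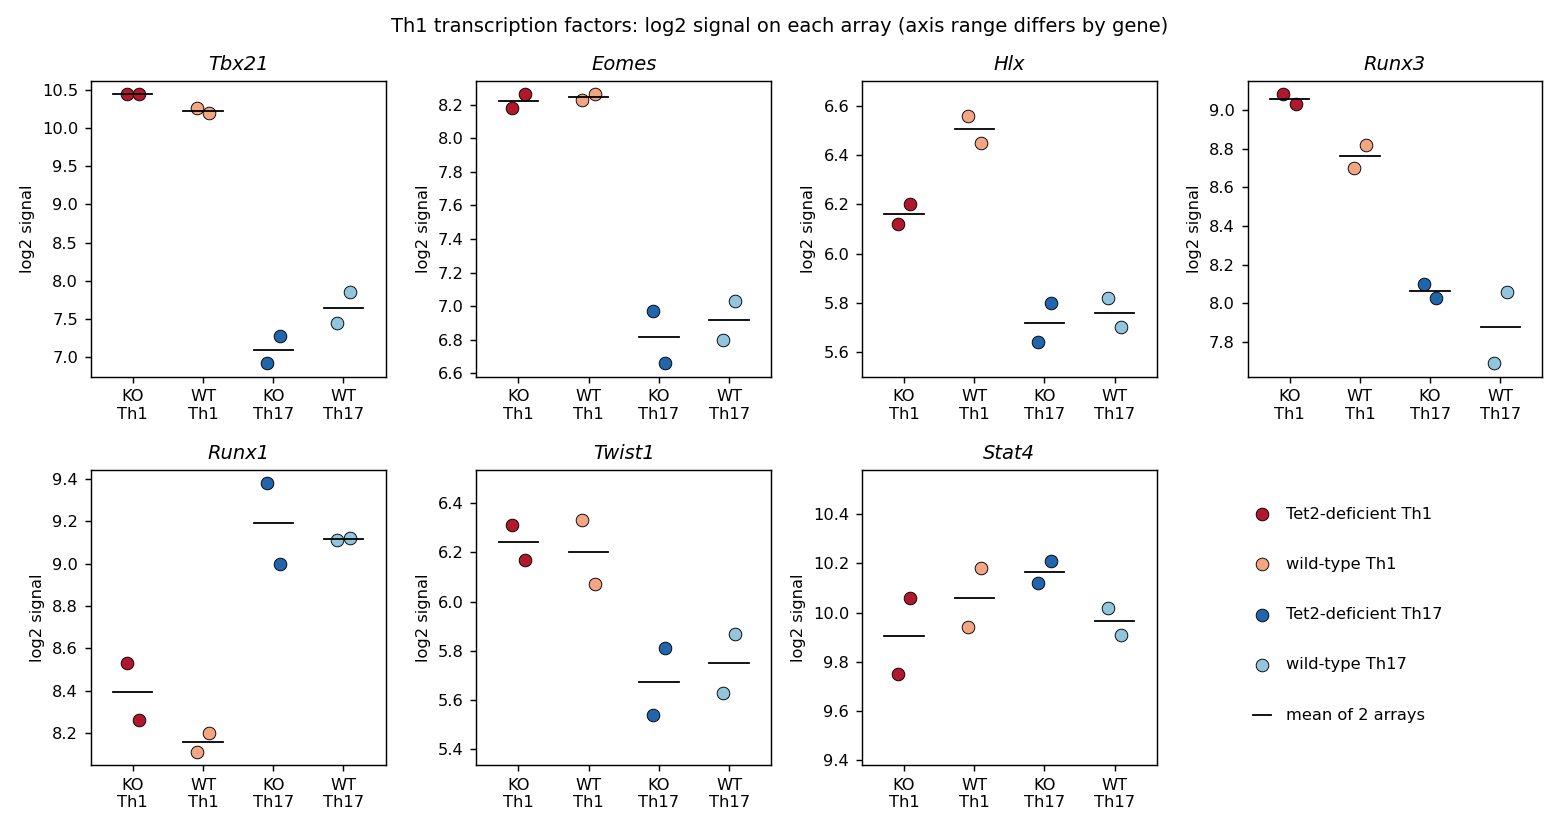
Log2 signal (y axis, with a different range for each gene) of the 7 factors on each of the 8 arrays, by group (x axis). Points are arrays and bars are means of 2 arrays. Tbx21 lay between 10.20 and 10.44 on the Th1 arrays and between 6.92 and 7.85 on the Th17 arrays, while Stat4 kept within 9.75 to 10.21 throughout.

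Tbx21 (gene ID 57765, chromosome 11, 97098007 to 97115331, GRCm38), whose product T-bet directs Th1 differentiation, had the widest separation of the 7. Its log2 signal was 10.44 and 10.44 in Tet2-deficient Th1 cells, 10.26 and 10.20 in wild-type Th1 cells, 6.92 and 7.28 in Tet2-deficient Th17 cells and 7.45 and 7.85 in wild-type Th17 cells. No Th17 array came near a Th1 array, and within each subset the Tet2-deficient and wild-type arrays did not overlap either. Such a lack of overlap between genotypes was seen for 33.3% of all genes in Th1 cells and 32.9% in Th17 cells. Tbx21 was 10.2-fold higher in Th1 than in Th17 cells without Tet2 (log2 fold change 3.34 ± 0.16, adjusted p = 1.07e-07, limma) and 6-fold higher in wild-type cells (2.58 ± 0.16, adjusted p = 9.61e-07). Against wild-type, Tbx21 had a log2 fold change of 0.21 ± 0.16 in Tet2-deficient Th1 cells, with a 95% interval of -0.13 to 0.55 (adjusted p = 0.889). In Tet2-deficient Th17 cells it had -0.55 ± 0.16, with an interval of -0.89 to -0.21 (adjusted p = 0.789, unadjusted p = 0.00386 from limma). The order of the group means was thus Tet2-deficient Th1, wild-type Th1, wild-type Th17 and Tet2-deficient Th17, with 10.44, 10.23, 7.65 and 7.10, and the neighbours within a subset did not pass the test.

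The subset gap of Tbx21 without Tet2 less that in wild-type cells was 0.76 ± 0.22 on the log2 scale, with a 95% interval of 0.28 to 1.24, which is also the difference between its responses to Tet2 loss in Th1 and in Th17 cells. That difference had an unadjusted p of 0.00453 and an adjusted p of 0.999 (limma) and so was not called, as was true of every gene (0% of 19938). It ranged from 0.56 to 0.96 when single arrays were left out and was 0.74 without the Th17 replicate 2 arrays. Tet2-deficient Th17 arrays had higher Xist on average, and their natural killer cell markers (4 of 4 measured) averaged 5.35 and 5.69 against 5.0 and 5.01 in wild-type Th17 cells, with Klrd1 at 7.25 and 8.07 against 6.30 and 6.51 and Ncr1 under the median on every array. The Tbx21 value in Th17 cells ranged from -0.75 without wild-type Th17 replicate 1 to -0.35 without wild-type Th17 replicate 2, and was -0.37 without Tet2-deficient Th17 replicate 1, uncalled throughout. It was -0.74 with the female share of RNA in the fit and -0.53 without the replicate 2 arrays of both Th17 groups. The part of the natural killer cell markers in it was not tested.

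Eomes (gene ID 13813, chromosome 9, 118478186 to 118486132), the second T-box factor of the group, followed the subset and did not pass between genotypes. Its log2 signal was 8.18 and 8.26 in Tet2-deficient Th1 cells, 8.23 and 8.26 in wild-type Th1 cells, 6.97 and 6.66 in Tet2-deficient Th17 and 6.80 and 7.03 in wild-type Th17 cells. The Th1 arrays differed among themselves by less than 0.1, and every Th17 array was lower than every Th1 array. Th1 cells exceeded Th17 cells 2.64-fold without Tet2 (1.40 ± 0.13, adjusted p = 3.78e-05, limma) and 2.52-fold in wild-type cells (1.33 ± 0.13, adjusted p = 6.46e-05). The log2 fold change of Eomes on Tet2 loss was -0.03 ± 0.13 in Th1 cells (95% interval -0.32 to 0.26) and -0.10 ± 0.13 in Th17 cells (-0.39 to 0.19). The difference between its subset gaps was 0.07 ± 0.19 (95% interval -0.34 to 0.48).

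The promoters of both T-box genes are shown because these genes had the widest gaps between the subsets, and because Tet2 acts on cytosines followed by guanine. The 250 bases before the start site are given (RefSeq, GRCm38.p6), 5′ to 3′ in the direction of the gene, with each CpG in capitals. The Tbx21 stretch is chr11:97115332-97115581 on the minus strand and the Eomes stretch chr9:118477939-118478188 on the plus strand.
Tbx21: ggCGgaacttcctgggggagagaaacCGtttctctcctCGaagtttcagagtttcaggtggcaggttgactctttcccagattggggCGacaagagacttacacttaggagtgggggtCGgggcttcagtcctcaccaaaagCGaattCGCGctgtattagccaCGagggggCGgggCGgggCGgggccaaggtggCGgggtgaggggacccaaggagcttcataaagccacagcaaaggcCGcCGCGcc
Eomes: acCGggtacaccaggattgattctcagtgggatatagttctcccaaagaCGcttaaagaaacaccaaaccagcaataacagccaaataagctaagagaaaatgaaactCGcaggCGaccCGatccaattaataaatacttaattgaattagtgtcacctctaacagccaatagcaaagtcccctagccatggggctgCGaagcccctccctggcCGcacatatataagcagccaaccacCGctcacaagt
With the 50 bases after the start, the Tbx21 promoter holds 21 CpG and that of Eomes 10, where the median of 32851 promoters of that length is 7, with quartiles of 3 and 20. The arrays measured RNA and not methylation, so the methylation of these sites was not measured here. A short T-box site (GGTGTGA, either strand), present in 3.98% of all promoters, and a STAT palindrome (TTCNNNGAA), present in 8.3%, were in none of the 10 promoter windows of the 7 genes, which says only that these letters are not there.

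Hlx (gene ID 15284, chromosome 1, 184727143 to 184732493), the homeobox factor that acts with T-bet on Ifng, was the factor with the smallest p on Tet2 loss in Th1 cells. Its log2 signal was 6.12 and 6.20 in Tet2-deficient Th1 cells, 6.56 and 6.45 in their wild-type counterparts, 5.64 and 5.80 in Tet2-deficient Th17 cells and 5.82 and 5.70 in wild-type Th17 cells. Hlx lay under the median of all genes on every array. Between genotypes in Th1 cells 33.3% of all genes did not overlap, and between Tet2-deficient subsets 57.5%. Both Tet2-deficient Th1 arrays of Hlx were lower than both wild-type Th1 arrays and higher than all Th17 arrays, an intermediate level. Its log2 fold change against wild-type Th1 cells was -0.34 ± 0.11, with a 95% interval of -0.58 to -0.10, and did not pass (adjusted p = 0.797, unadjusted p = 0.00869, limma). In Th17 cells it was -0.05 ± 0.11. Hlx was higher in Th1 than in Th17 cells by 0.44 ± 0.11 without Tet2 (adjusted p = 0.0238) and by 0.74 ± 0.11 in wild-type cells (adjusted p = 0.00131). Between these gaps the difference was -0.30 ± 0.16 and was not called (adjusted p = 0.999). Without the Th17 replicate 2 arrays the Tet2-deficient gap was 0.52 and not called (adjusted p = 0.0708). It also lost its call when either Tet2-deficient Th1 or either Tet2-deficient Th17 array was left out (adjusted p from 0.0522 to 0.198), whereas the wild-type gap kept its call in all 8 such fits.

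Runx3 and Runx1, Runt-domain factors that bind the same DNA core, moved in opposite directions between the subsets. Runx3 (gene ID 12399, chromosome 4, 135120645 to 135177990) read 9.08 and 9.03 in Tet2-deficient Th1 cells, 8.70 and 8.82 in their wild-type counterparts, 8.10 and 8.03 in Tet2-deficient Th17 cells and 7.69 and 8.06 in wild-type Th17 cells. Runx1 (gene ID 12394, chromosome 16, 92601466 to 92826074) read 8.53 and 8.26 in Tet2-deficient Th1 cells, 8.11 and 8.20 in their wild-type counterparts, 9.38 and 9.0 in Tet2-deficient Th17 cells and 9.11 and 9.12 in wild-type Th17 cells. On every Th1 array Runx3 was above, and Runx1 below, its level on every Th17 array. Runx3 was 1.99-fold higher in Th1 than in Th17 cells without Tet2 (0.99 ± 0.13, adjusted p = 0.000569, limma) and 1.84-fold higher in wild-type cells (0.88 ± 0.13, adjusted p = 0.00161). Runx1 was 1.73-fold lower in Th1 cells without Tet2 (-0.79 ± 0.15, adjusted p = 0.00433) and 1.94-fold lower in wild-type cells (-0.96 ± 0.15, adjusted p = 0.00153). The Runx1 call in Tet2-deficient cells ended without Tet2-deficient Th17 replicate 1 (-0.60, adjusted p = 0.071), the array with the highest Runx1.

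Neither Runx gene was called between genotypes. Lack of overlap between genotypes in Th1 cells was seen for 33.3% of all genes. Both Runx genes were among these, higher on each Tet2-deficient than on each wild-type Th1 array. Their log2 fold changes in Tet2-deficient Th1 cells were 0.30 ± 0.13 for Runx3 (95% interval 0.01 to 0.59, adjusted p = 0.821, limma) and 0.24 ± 0.15 for Runx1 (-0.07 to 0.56, adjusted p = 0.845). In Tet2-deficient Th17 cells they were 0.19 ± 0.13 and 0.08 ± 0.15, with overlapping arrays. The order of Runx3 means followed that of Tbx21 except in Th17 cells, at 9.06, 8.76, 8.06 and 7.88 for Tet2-deficient Th1, wild-type Th1, Tet2-deficient Th17 and wild-type Th17 cells.

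Both Runx genes have a distal and a proximal promoter in the RefSeq table, which the single probe sets of these genes do not separate. The proximal windows are rich in CpG, with 45 for Runx3 and 35 for Runx1, and the distal ones are not, with 8 and 2. The distal windows each hold 2 Runx cores (TGTGGT on either strand) that begin 8 bases apart, at positions -134 and -126 from the start site in Runx3 and at positions 28 and 36 in Runx1. Such a spacing is found in 20 of 32851 promoters (0.0609%), and any 2 cores in 1.81%. The spacing was read from these windows, which the scan also counted, so its rarity is no test of a shared element. The stretches of 30 bases are shown because these genes, opposite in their subset pattern, share this element, with the cores in capitals; they are chr4:135120503-135120532 on the plus strand and chr16:92826025-92826054 on the minus strand (RefSeq, GRCm38.p6).
Runx3: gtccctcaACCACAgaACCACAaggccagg
Runx1: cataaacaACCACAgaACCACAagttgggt
A match is a description of letters and no evidence that a factor binds there.

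Twist1 (gene ID 22160, chromosome 12, 33957671 to 33959831), the repressor that restrains Th1 cytokines, had low signals and a small gap between the subsets. Its log2 signal was 6.31 and 6.17 in Tet2-deficient Th1 cells, 6.33 and 6.07 in their wild-type counterparts, 5.54 and 5.81 in Tet2-deficient Th17 cells and 5.63 and 5.87 in wild-type Th17 cells. Every Th1 array exceeded every Th17 array, but replicates of a group differed by 0.14 to 0.27. Lack of overlap between the subsets was seen for 57.5% of all genes without Tet2 and 52.2% in wild-type cells. The gap was 0.56 ± 0.14 without Tet2 (adjusted p = 0.0219, limma) and 0.45 ± 0.14 in wild-type cells (adjusted p = 0.0616), where it did not pass. The difference between the gaps was 0.11 ± 0.19, so a call in Tet2-deficient cells alone shows no difference between genotypes. The Tet2-deficient call ended without Tet2-deficient Th17 replicate 1 (0.43, adjusted p = 0.206), and equally when the first (0.49, adjusted p = 0.153) or the second (0.63, adjusted p = 0.0572) Tet2-deficient Th1 array was dropped, and the wild-type gap passed without wild-type Th1 replicate 2 (0.58, at an adjusted p of 0.0482). It also passed with the female share of RNA in the fit (0.53, adjusted p = 0.0346). Tet2 loss gave 0.04 ± 0.14 in Th1 and -0.07 ± 0.14 in Th17 cells.

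Stat4 (gene ID 20849, chromosome 1, 51987106 to 52107189), which carries the interleukin-12 signal, was the member that did not pass in either comparison of subsets. Its log2 signal was 9.75 and 10.06 in Tet2-deficient Th1 cells, 9.94 and 10.18 in their wild-type counterparts, 10.12 and 10.21 in Tet2-deficient Th17 cells and 10.02 and 9.91 in wild-type Th17 cells. The group means of 9.90, 10.06, 10.16 and 9.96 differed by amounts like those between replicates of a group (0.10 to 0.31). Th1 against Th17 gave -0.26 ± 0.14 without Tet2 (95% interval -0.57 to 0.04, adjusted p = 0.28, limma) and 0.10 ± 0.14 in wild-type cells (-0.21 to 0.41, adjusted p = 0.707). Tet2 loss gave -0.16 ± 0.14 in Th1 cells and 0.20 ± 0.14 in Th17 cells, neither of them called.

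Without the replicate 2 arrays of both Th17 groups, where the sex of the RNA differed most, the gaps of all 7 factors kept their direction. Tbx21 was 3.52 higher in Th1 cells without Tet2 and 2.78 higher in wild-type cells, and Eomes 1.25 and 1.45 higher. Runx3 was 0.96 and 1.06 higher and Runx1 differed by -0.98 and -0.95, all of them called (adjusted p from 1.37e-06 to 0.0172, limma). Twist1, at 0.70 and 0.57, was again called without Tet2 (adjusted p = 0.0349) and not in wild-type cells (adjusted p = 0.109). Each Th17 group then had 1 array, which is assumed to vary like the other groups.

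**Figure D2:**
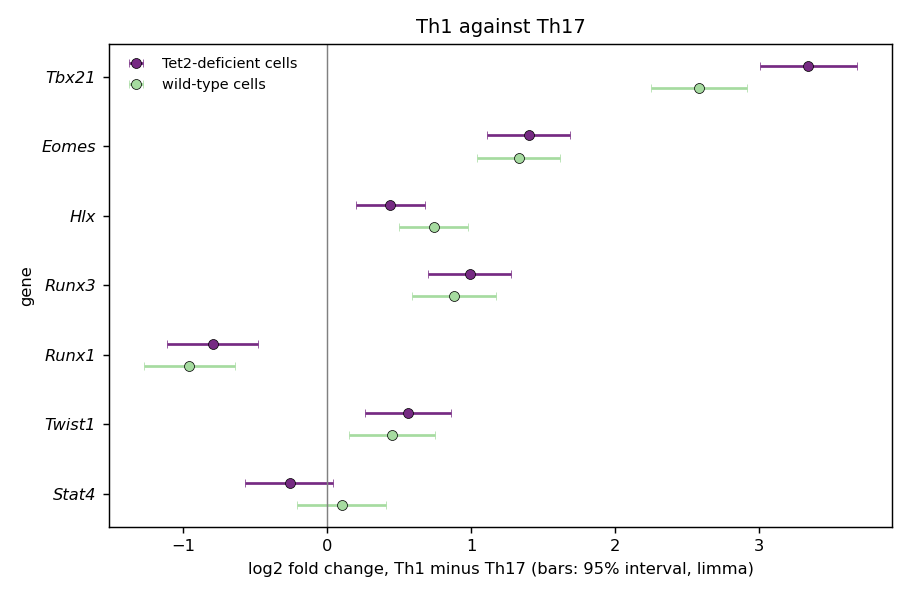
Log2 fold change of each factor, Th1 minus Th17 (x axis), in Tet2-deficient and wild-type cells, with 95% intervals from limma (2 arrays per group). Tbx21 (3.34 and 2.58) and Eomes (1.40 and 1.33) lie farthest to the right, Runx1 (-0.79 and -0.96) lies left of 0, and the intervals of Stat4 include 0 in both genotypes.

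Set side by side, the log2 fold changes of the 7 factors on Tet2 loss in Th1 cells were smaller in size than that of Ifng. Ifng encodes the signature cytokine of Th1 cells and is a target of T-bet, Runx3 and Hlx. It was the 1 gene of 19938 called in that comparison, so a change smaller than its own does not set these factors apart. Ifng read 10.43 and 10.18 in Tet2-deficient Th1 cells, against 11.55 and 11.84 in wild-type Th1 cells, a log2 fold change of -1.39 ± 0.14 (95% interval -1.68 to -1.09, adjusted p = 0.00438, limma). In the same cells no interval of the 7 factors reached below -0.58, the lower bound of Hlx, and the point values of Tbx21, Runx3, Runx1 and Twist1 were above 0. Between genotypes, the arrays of 4 of the 7 factors did not overlap in Th1 cells (Tbx21, Runx3 and Runx1 higher, Hlx lower), against 33.3% of all genes. In Th17 cells this held for 2 of the 7 (Stat4 higher, Tbx21 lower), against 32.9% of all genes. Between the subsets, 7 of 7 factors did not overlap in Tet2-deficient and 6 of 7 in wild-type cells, against 57.5% and 52.2% of all genes. Tbx21 was the factor whose arrays separated in opposite directions in Th1 and Th17 cells, as did those of 4.96% of all genes. The comparisons of genotypes and of subsets share arrays, so their values for 1 gene are not independent of each other. The Ifng call in Th1 cells ended when only the 4 Th1 arrays were compared (-1.39, adjusted p = 0.151, limma) and over all probe sets (-1.39, adjusted p = 0.274). It also ended when wild-type Th1 replicate 2 (-1.24) or Tet2-deficient Th1 replicate 2 (-1.26) was left out. Dropping the replicate 2 Th17 arrays ended it as well, which leaves its value at -1.39 but changes the estimate of spread.

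**Figure D3:**
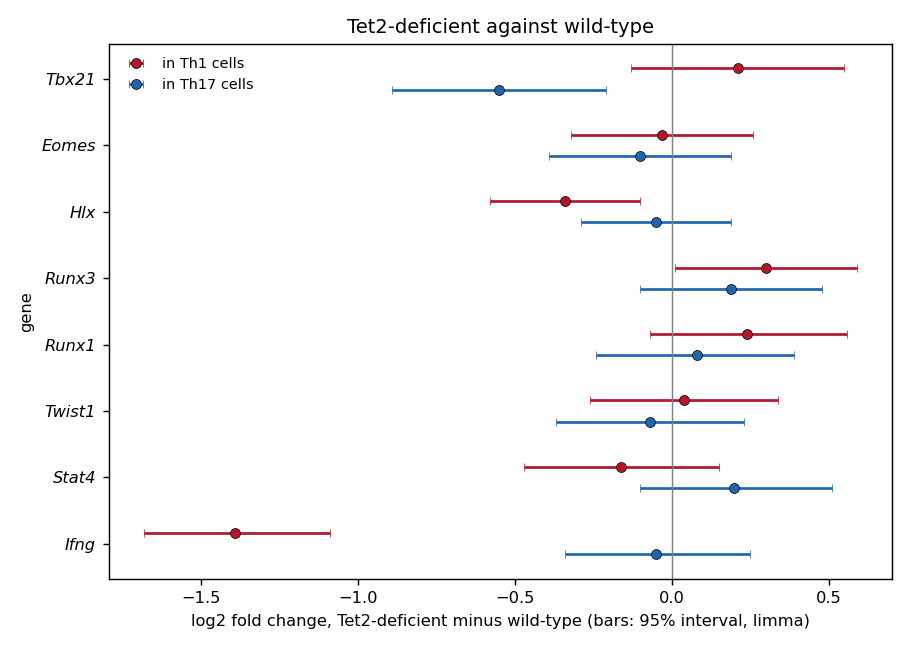
Log2 fold change, Tet2-deficient minus wild-type (x axis), of the 7 factors and of Ifng in Th1 and in Th17 cells, with 95% intervals from limma (2 arrays per group). The factors lie between -0.34 and 0.30 in Th1 cells, where Ifng lies at -1.39, and Tbx21 in Th17 cells lies at -0.55; of these values only that of Ifng in Th1 cells was called.

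The genes upstream of the factors, receptors and signalling genes for the Th1-inducing cytokines, held members called in both directions. Of 13 measured, 3 were called higher and 3 lower in Th1 than in Th17 cells without Tet2, where 3.79% of all genes were called higher and 6.32% lower. In wild-type cells 2 were called higher and 3 lower, against 3.44% and 4.97% of all genes. The list's median log2 fold change was -0.21 and -0.13, against 0.03 over all genes. Il12rb2, the signalling chain of the interleukin-12 receptor, was higher in Th1 cells (1.31 without Tet2 and 1.64 in wild-type cells), as was the interferon-induced factor gene Irf1 (1.77 and 1.06). Ifngr2, a chain of the interferon-gamma receptor, was lower (-1.35 and -1.28). Il18r1, an interleukin-18 receptor chain, was called lower without Tet2 (-0.87, against -0.27 in wild-type cells), and Il27ra, the interleukin-27 receptor gene, in wild-type cells (-0.49 without Tet2 and -1.12 in wild-type cells); the difference between genotypes was not called for any gene. On Tet2 loss 0 of 13 were called in either subset. Those with the smallest p were Irf1 (0.58 ± 0.19) and Il27ra (0.41 ± 0.16) in Th1 cells and Ifngr1 (0.46 ± 0.13) and Il12rb2 (0.36 ± 0.13) in Th17 cells, with adjusted p from 0.779 to 0.99996 (limma).

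Genes downstream, which T-bet and Runx3 are known to regulate, were largely higher in Th1 cells. Of 16 measured, 11 were called higher and 1 lower in Th1 than in Th17 cells without Tet2, with a median of 1.18, and 9 higher and 0 lower in wild-type cells, with a median of 1.03, against 0.03 over all genes. The shares of all genes called were 3.79% higher and 6.32% lower without Tet2, and 3.44% and 4.97% in wild-type cells. The largest were the natural killer granule gene Nkg7 (4.95 without Tet2 and 4.54 in wild-type cells), the granzyme gene Gzmb (4.72 and 4.85), Ifng (4.35 and 5.69) and the chemokine gene Ccl3 (2.99 and 2.48). Cxcr6, a chemokine receptor gene, was called lower without Tet2 (-1.59, adjusted p = 0.00237, limma), with -0.84 in wild-type cells. It is named although its value was seen first. On Tet2 loss Ifng alone of the 16 was called in Th1 cells, and 0 of 16 in Th17 cells. In Th1 cells the medians were -0.05 for the list and 0.01 for all genes, and Nkg7 (0.01), Ccl3 (0.06) and Gzmb (-0.34) did not pass. After Ifng the smallest p belonged to Xcl1, a chemokine gene, with a positive value that did not pass (0.76 ± 0.19, adjusted p = 0.797, limma). Its log2 signal was 8.73 and 8.47 in Tet2-deficient Th1 cells, against 7.79 and 7.90 in wild-type Th1 cells. These arrays did not overlap, as was true of 33.3% of all genes in that comparison. In Th17 cells, those with the smallest p were the lymphotoxin gene Lta (-0.96 ± 0.15, adjusted p = 0.183) and Tnf (-0.46 ± 0.15, adjusted p = 0.983), neighbours in the genome.

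**Figure D4:**
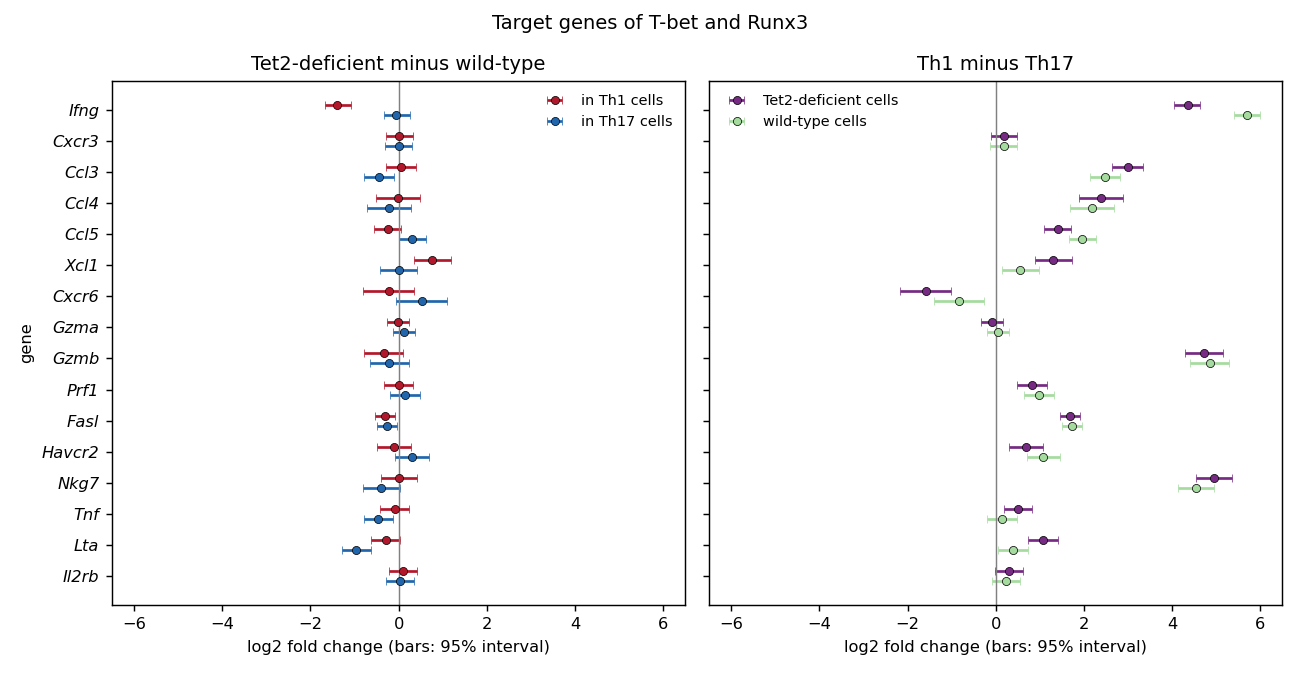
Log2 fold changes (x axes) of 16 genes known to be regulated by T-bet and Runx3, with 95% intervals from limma: Tet2-deficient minus wild-type in Th1 and Th17 cells (left), and Th1 minus Th17 in Tet2-deficient and wild-type cells (right). Most lie to the right of 0 between the subsets, with Nkg7, Gzmb and Ifng above 4, whereas on Tet2 loss Ifng in Th1 cells (-1.39) was the only value called.

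Of 18 measured partners and relatives of the factors, 2 were called between the subsets in each genotype, where 10.1% of all genes were called without Tet2 and 8.4% in wild-type cells, so the count is near that of genes at large. Both were lower in Th1 cells: Id2, an inhibitor of helix-loop-helix factors (-1.21 without Tet2 and -1.01 in wild-type cells), and Stat5b, which signals for interleukin-2 (-0.51 and -0.65). Cbfb, the shared partner of Runx3 and Runx1, was not called in any comparison, with -0.15 ± 0.12 without Tet2 and -0.29 ± 0.12 in wild-type cells. It was chosen after its values were seen, as the partner of both Runx factors. On Tet2 loss 0 of 18 were called, and those with the smallest p were Zbtb7b (0.31 ± 0.13), which encodes the CD4 lineage factor ThPOK, and Id3 (0.41 ± 0.21) in Th1 cells, and Id3 (0.55 ± 0.21) and Id1 (-0.23 ± 0.12) in Th17 cells.

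Other transcription factors of effector T cells also differed by subset. Of 14, 5 were called higher and 4 lower in Th1 than in Th17 cells in each genotype. Of all genes, 3.79% were called higher and 6.32% lower without Tet2, and 3.44% and 4.97% in wild-type cells. The list's median log2 fold change was -0.00 without Tet2 and -0.04 in wild-type cells, against 0.03 over all genes. Irf8 was higher in Th1 cells (2.0 in both genotypes), as was Zeb2, a repressor that acts with T-bet in effector cells (1.01 and 1.01). Hopx, a homeobox gene of Th1 memory (1.03 and 0.89), and Prdm1, which encodes Blimp-1 (0.67 and 1.63), were higher as well. Ikzf3, the Aiolos gene, was lower in Th1 cells (-1.39 and -1.68). On Tet2 loss 0 of 14 were called. In Th1 cells Prdm1 (-0.76 ± 0.11, adjusted p = 0.21, limma) and Batf3 (-0.36 ± 0.12, adjusted p = 0.797) had the smallest p, and in Th17 cells Batf (0.28 ± 0.13) and Zeb2 (-0.31 ± 0.16).

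Factors of other helper subsets were mostly lower in Th1 cells. Of 9 measured, 2 were called higher and 5 lower in Th1 than in Th17 cells without Tet2, and 1 higher and 5 lower in wild-type cells, with medians of -1.28 and -1.08. Among all genes, 3.79% were called higher and 6.32% lower without Tet2, and 3.44% and 4.97% in wild-type cells. The lower ones included Maf (-3.52 without Tet2 and -3.67 in wild-type cells), Rora, a Th17 factor (-2.41 and -2.13), the aryl hydrocarbon receptor gene Ahr (-1.85 and -1.66) and Bcl6, of follicular helper cells (-1.87 and -1.18). On Tet2 loss 0 of 9 were called, with Bcl6 in Th17 cells at 0.75 ± 0.14 (adjusted p = 0.377, limma). Of 12 genes for chromatin enzymes, including those that T-bet recruits, 1 was called higher and 1 lower in Th1 than in Th17 cells without Tet2, Dnmt3a (0.42, against 0.26 in wild-type cells) and Kdm6a (-1.14, against -0.50). Kdm6a escapes X inactivation. It read 8.71 and 9.16 in Tet2-deficient Th17 cells, 8.58 and 8.72 in wild-type Th17 cells, and 7.57 to 8.28 on the Th1 arrays. Wild-type Th17 replicate 1, with Kdm6a at 8.58, had Xist at 5.15, near the Th1 arrays (4.80 to 5.07). The part of the sex of the RNA in the Kdm6a gap was not tested. In wild-type cells 0 of the 12 were called higher and 2 lower, Tet1 (-0.27 without Tet2 and -0.50 in wild-type cells) and Tet2 (-0.32 and -0.42). These 2 of 12 in each genotype are read against 10.1% of all genes called without Tet2 and 8.4% in wild-type cells, and say little about the list. On Tet2 loss 0 of the 12 were called in either subset.

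For the 6 factors called between the subsets, the genes with the most similar profile were found by the root-mean-square distance between log2 signals on the 8 arrays, after centring each gene on its mean. Candidates were the 1502 to 1867 genes called in a comparison in which the factor was called, with a mean signal above the median and predicted genes left out. Nearest to Tbx21 were Ccl3 (0.21), Penk (0.25) and Serpinb9 (0.36), where the median candidate was 1.73 away. Nearest to Eomes were Gbp11 (0.08), Tmem159 (0.12) and Gadd45g (0.13), with a median of 0.92. Gbp11 belongs to a family of close copies whose probes may share signal. Hlx was nearest to Sco1 (0.06), Ccne2 (0.09) and Batf3 (0.11). They were chosen for likeness to Hlx on these arrays, so a similar intermediate level in Tet2-deficient Th1 cells adds no support. Batf3 averaged 7.24 there, against 7.60 in wild-type Th1 cells, and the fall was not called for Hlx or for Batf3. Nearest to Runx3 were Wdtc1 (0.10), Zfpm1 (0.11) and Tnfsf10 (0.12), to Runx1 Znrf1, Acvr2a and Vax2 (each 0.10), and to Twist1 Lancl3 (0.07), Xaf1 (0.09) and Gpld1 (0.10). Small distances are easier to reach for a gene that varies little, so they are not comparable between factors.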

How the data were processed

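The authors measured RNA with an Affymetrix whole-transcript array and deposited log2 probe-set signals. Per the submitters' processing notes GCOS, RMA and Affymetrix Expression Console were used; versions and options are not given in the sources used here. The values were used without further scaling. Of 35556 probe sets, 1621 carried several symbols and 12146 no symbol in the platform annotation of 2016. The other 21789 gave 19938 genes, by the highest mean where a gene had several, and 21698 matched by gene ID to GRCm38. Groups came from the titles. Limma 3.58.1 (R 4.3.3) fitted 4 group means and tested 6 contrasts with eBayes and an intensity trend, with 4 residual and 8.32 prior degrees of freedom, two-sided, with Benjamini-Hochberg adjustment over all genes. Array signals have no depth in counts, so precision rests on how many arrays there are. The labels do not say that replicates came from separate animals. The female share of RNA is the unlogged Xist signal above the median of the Th1 arrays. It is scaled so that the array with the highest Xist reads 100%, and is thus relative to that array. In the Th17 groups the sex genes differed between replicates (female share of RNA 14.7% and 100% in Tet2-deficient, 0.174% and 42.9% in wild-type cells), so their RNA did not come from the same animals alone. Nothing tells this for the Th1 groups, where p-values may measure technical spread. The method was tested on simulated data.

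The members and lists were chosen with earlier results of these data known. Named were the 7 members, Tet2, and from each list and contrast up to 4 called genes with the largest change, or the 2 with the smallest p where none was called, plus the 3 most similar genes of each called member. Cxcr6, Cbfb and Xcl1, and further marker and target genes given only with values, were added after their values were seen. The median of all genes moved by less than 0.1 under each rescaling. Alternatives were a replicate block, only the arrays compared, a filter on low signal, other probe set rules, requantiling, centring, no trend, robust eBayes, array weights, the female share of RNA as a covariate, and leaving out each array. Leaving out both Th17 replicate 2 arrays was chosen after seeing the data.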

Additional observations from a re-analysis of the deposited data

Results flagged for a closer look

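The arrays of Tbx21 separated in opposite directions by genotype in the subsets. Both Tet2-deficient Th1 arrays (10.44 and 10.44) were higher than both wild-type Th1 arrays (10.26 and 10.20), and both Tet2-deficient Th17 arrays (6.92 and 7.28) were lower than both wild-type Th17 arrays (7.45 and 7.85). The difference between the responses, Th1 minus Th17, was 0.76 on the log2 scale and was tested: it did not pass over all genes (adjusted p = 0.999, unadjusted p = 0.00453, limma). Such opposite and non-overlapping responses were found for 989 of 19938 genes (4.96%).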

How the results depend on the processing

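Of 683 member values under the alternatives, 645 kept their direction and side of the threshold, 14 lost and 2 gained a call, and 22 changed sign, 0 of these among values called in the original fit. Members called stayed at 0 for Tet2 loss in every fit. Between subsets 5 or 6 were called in wild-type cells when an array was left out, and 3 to 6 in Tet2-deficient cells, with 3 without Tet2-deficient Th17 replicate 1, an array without which calls on Hlx, Runx1 and Twist1 ended. Without both Th17 replicate 2 arrays, 5 were called in each genotype, and signs turned, with nothing called, for Eomes in Th17 cells (0.17) and in the difference of responses (-0.20), and in that difference for Runx3 (-0.11) and Runx1 (-0.03). In Tet2-deficient cells the calls on Hlx (0.44 and 0.36) and Twist1 (0.56 and 0.48) ended over all probe sets and after quantile normalization, and that on Hlx (0.49) under adjustment for the female share of RNA. The cause was not tested.

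With an array left out, uncalled values that turned sign ranged for Eomes from -0.07 to 0.01 in Th1 cells, -0.26 to 0.05 in Th17 cells and -0.09 to 0.23 in the difference. For Hlx in Th17 cells the range was -0.12 to 0.03, for Runx3 in the difference -0.07 to 0.29, and for Runx1 -0.11 to 0.26 in Th17 cells and -0.02 to 0.35 in the difference. For Twist1 it was -0.09 to 0.17, -0.21 to 0.06 and -0.03 to 0.24 in Th1 cells, Th17 cells and the difference, and for Stat4 between wild-type subsets -0.02 to 0.22.

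Over all genes, Tet2 loss in Th1 cells gave 1 call, and 0 on only the arrays compared, over all probe sets or without Th17 replicate 2 arrays (0 to 2 with an array left out). In Th17 cells it gave 0, but 1 with the low-signal filter, 2 with robust eBayes, 2 with array weights and 1 without Th17 replicate 2 arrays (0 to 4). The mean of the subsets gave 0 calls, but 1 after quantile normalization and 1 without those arrays (0 to 5), and the difference 0, but 1 without them (0 to 4); at an unadjusted p under 0.05 limma found 1206 in Th1 cells (6.05%), 824 in Th17 cells (4.13%), 1093 for the mean (5.48%) and 894 for the difference (4.48%), where no change at all would give about 5%. Between wild-type subsets 1675 genes were called, against 1101 on only the arrays compared, 599 of all probe sets and 488 without Th17 replicate 2 arrays (663 to 1551). Between Tet2-deficient subsets 2015 were called, against 1001 of all probe sets, 726 with the female share as a covariate and 977 without those arrays (801 to 2335). Filtering tests 5 of the 7 members, since Hlx and Twist1 are dropped.

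Titles number replicates 1 and 2 in every group, but correlations of same-numbered deviations between groups were -0.186 to 0.061, and nothing says that numbers mark shared animals. With replicate number as a block, 1398 and 1767 genes were called between wild-type and Tet2-deficient subsets, 1 in Th1 cells and 0 in Th17 cells, and 5 and 6 members between the subsets.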
